A study of Danio rerio with 6 samples.

Results

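Skeletal muscle contracts when myosin heads pull on actin filaments inside repeating units called sarcomeres. Troponin and tropomyosin on the thin filament hold the heads back until calcium, released from the sarcoplasmic reticulum after a voltage change at the membrane, lifts the block. Fast fibres and slow fibres use different genes for many of these parts, and in the zebrafish embryo the slow fibres form a superficial layer over the fast muscle of the trunk. The 45 genes described here are skeletal muscle contractile genes together with the enzymes, calcium handling proteins, chaperones and transcription factors that serve them. They were taken by exact gene symbol, and all 45 of the 45 symbols were present among the 29361 symbols of the count table. They were read in RNA of sorted cells labelled as endothelial.

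The 6 libraries came from zebrafish at 48 hours after fertilisation, all carrying a kdrl eGFP transgene, in which the promoter of the endothelial Vegf receptor gene kdrl drives a green fluorescent protein. Of these, 3 libraries were from fish with the mafba uq4bh mutation, which lies in a gene encoding a large Maf transcription factor, and 3 were from wild-type fish. The labels state neither the zygosity of the mutants nor the number of embryos per library. The labels call the sample purified endothelial cells, while their protocol speaks of brains and of a pdgfr beta reporter, so the tissue and the gate are not settled. Whether the 3 libraries of a genotype were made from different embryos is not stated, so the p-values cover the spread among these libraries only, and that spread may be technical. The study asked what mafba controls in the vessels from which lymphatics form.

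Reads assigned to genes numbered 49197402, 44888870 and 52923490 in mutant libraries 1, 2 and 3 and 43859736, 44629391 and 49145191 in wild-type libraries 1, 2 and 3. Levels are given as CPM, the deposited counts set relative to library sizes scaled by the trimmed mean of M-values (TMM), and are not divided by gene length, so they are compared between libraries and not between genes. The level of mafba was 31.0, 39.6 and 38.6 CPM in mutant and 32.9, 45.8 and 33.3 CPM in wild-type libraries, which does not check the genotype labels, since the labels do not say where in the gene uq4bh lies. Endothelial marker genes were read: 7 of 8 were in the table, none was at 0, and kdrl stood at 44.4, 39.4 and 34.3 CPM in mutant and 54.8, 35.2 and 36.8 CPM in wild-type libraries. No neural, epidermal, erythrocyte or neutrophil marker was at 0 in all libraries either, so this does not show how pure the sorted cells were. Reads of the 45 muscle genes made up 0.695%, 0.902% and 0.539% of gene reads in the mutant libraries and 0.867%, 1.23% and 0.556% in the wild-type libraries. Of the 45 genes, 42 had reads in every library. In bulk RNA of this kind, fewer muscle cells in a library and less muscle RNA per cell cannot be told apart.

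Across the muscle genes, libraries of the same genotype differed widely, and no gene differed between genotypes beyond the spread among libraries. The members' summed level was 7271, 9610 and 4851 CPM in the mutant libraries and 8957, 12587 and 5264 CPM in the wild-type libraries. Library 2 was the highest and library 3 the lowest in each genotype. The enzyme genes eno3 and nme2b.2, which varied less than most members, held a large part of these sums. Without them the sum of 43 members was 5340.3, 7593.5 and 3526.4 CPM in mutant and 7019.6, 10764.5 and 3727.6 CPM in wild-type libraries. After removal of low counts 44 members were tested among 19381 genes, and tnni1b was not. With p-values adjusted by Benjamini-Hochberg over all tested genes, the quasi-likelihood test of edgeR called 0 of the 44 members, 0 higher and 0 lower, against a background of 0% of all tested genes. At an unadjusted p under 0.05 the same test counted 0 members, where 1.57% of all tested genes lay under that value, and the lowest adjusted p of a member was 1.00. Without wild-type 3 it counted 15 members under that unadjusted value (1.98% of all tested genes) and without mutant 2 it counted 4 (1.14%), with the lowest adjusted p of a member at 1.00 in each, while leaving out any other library gave 0 or 1. DESeq2 and limma-voom also called 0 members, and each had 0 of them at an unadjusted p under 0.05.

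**Figure D1:**
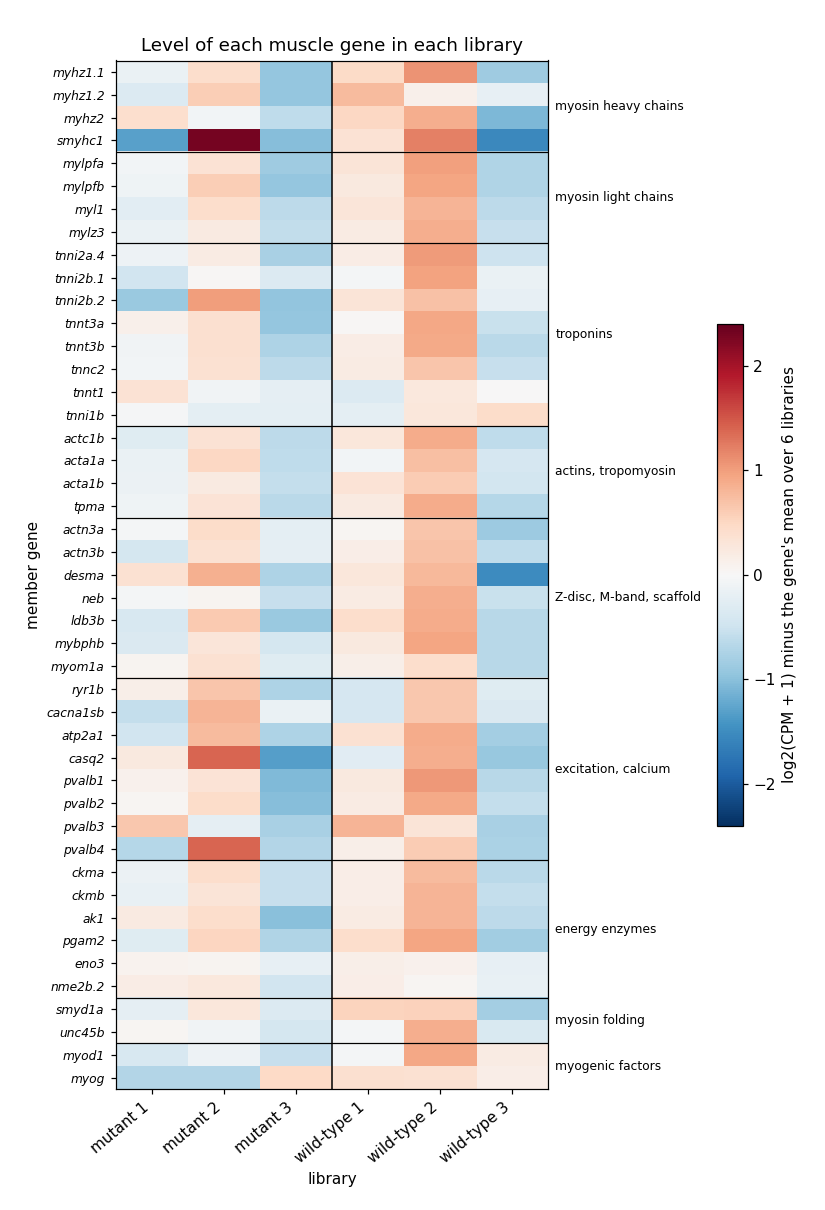
Level of each of the 45 muscle genes (rows, grouped by role) in each of the 6 libraries (columns), as log2(CPM + 1) minus the gene's own mean over the libraries. Most rows are red in wild-type 2, paler red in mutant 2 and blue in mutant 3 and wild-type 3, while eno3 and nme2b.2 stay near white and smyhc1, casq2 and pvalb4 are darkest in mutant 2.

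Among the myosin heavy chains, the motor proteins of the thick filament, the fast genes myhz1.1, myhz1.2 and myhz2 and the slow gene smyhc1 did not follow one order. The level of myhz1.1 was 321, 485 and 188 CPM in mutant libraries 1, 2 and 3 and 495, 766 and 198 CPM in wild-type libraries 1, 2 and 3. Both library 3 values were lowest and the groups overlapped, with a log2 difference of -0.55 ± 0.48 (SE, 95% interval -1.66 to 0.55). By contrast, myhz1.2 stood highest in wild-type 1, at 88.5, 168 and 58.2 CPM in mutant and 189, 121 and 98.1 CPM in wild-type libraries, and myhz2 was 201, 145 and 98.7 CPM in mutant and 214, 280 and 71.4 CPM in wild-type libraries. The order of their libraries therefore differed among the fast heavy chains. In the RefSeq gene table of the assembly GRCz12tu, myhz1.1, myhz1.2, myhz1.3, myha, myhc4 and myhz2 are direct neighbours. Such tandem copies are alike in sequence and the counts leave out reads that align to several places, so the split of reads among these genes is uncertain.

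The slow gene smyhc1 varied most. It stood at 3.00, 47.7 and 3.91 CPM in mutant libraries and 11.7, 22.1 and 2.41 CPM in wild-type libraries. The span was 19.8-fold in CPM, with 125 reads in wild-type 3 and 2009 reads in mutant 2. The highest library was mutant 2 and the other mutant libraries lay among the lowest, so the groups overlapped. Its log2 difference of 0.59 ± 1.21 (SE) had a 95% interval from 0.203 to 11.2 times the wild-type level. Against the sum of the 3 fast heavy chain genes, smyhc1 was 0.491%, 5.98% and 1.13% in mutant libraries and from 0.655% to 1.89% in wild-type libraries. The ratio in mutant 2 thus stood apart from the other 5 libraries. In the RefSeq table smyhc1 stands in a row with smyhc2 and smyhc3, so the split of reads is uncertain here too, and smyhc2 had 21, 246 and 14 reads in mutant and 37, 1 and 81 reads in wild-type libraries.

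The myosin light chains, which sit on the neck of the myosin head, moved together. The regulatory light chain gene mylpfa was at 492, 657 and 283 CPM in mutant libraries and 634, 1012 and 313 CPM in wild-type libraries, which averaged 478 ± 187 CPM in mutant and 653 ± 350 CPM in wild-type libraries (SD, n = 3 each). For mylz3, another fast light chain gene, the values were 334, 431 and 247 CPM in mutant and 424, 679 and 253 CPM in wild-type libraries. In both genes wild-type 2 was highest and the library 3 values of both genotypes were lowest, so the groups overlapped. The log2 differences were -0.45 ± 0.42 for mylpfa and -0.42 ± 0.31 for mylz3 (SE), and those of mylpfb and myl1 were -0.33 ± 0.46 and -0.36 ± 0.35.

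Actins and tropomyosin form the thin filament and its regulatory strand. The sarcomeric actin gene actc1b was at 794, 1242 and 628 CPM in mutant libraries and 1178, 1807 and 638 CPM in wild-type libraries. The mean was 888 ± 318 CPM in mutant libraries against 1208 ± 585 CPM in wild-type libraries (SD, n = 3 each), and the 95% interval ran from 0.435 to 1.24 times the wild-type level. Its log2 difference of -0.44 was -0.03 without wild-type 2 and -0.76 without mutant 2. A second actin gene, acta1b, stood at 210, 273 and 158 CPM in mutant and 295, 354 and 171 CPM in wild-type libraries, a log2 difference of -0.36 ± 0.25 (SE). Library 3 of each genotype again gave the lowest value and wild-type 2 the highest. The tropomyosin gene tpma differed by -0.36 ± 0.35 and the skeletal actin gene acta1a by -0.19 ± 0.32 (SE, log2).

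Troponins hold the calcium switch of the thin filament, with troponin C binding calcium, troponin I inhibiting and troponin T anchoring to tropomyosin. The fast troponin T gene tnnt3b was at 172, 238 and 108 CPM in mutant and 207, 343 and 116 CPM in wild-type libraries, a log2 difference of -0.36 ± 0.39 (SE). A fast troponin I gene, tnni2b.1, had lower counts, with 2.57, 4.01 and 2.96 CPM in mutant and 3.79, 8.66 and 3.41 CPM in wild-type libraries. Its groups overlapped through mutant 2, and the log2 difference was -0.73 ± 0.47 (SE, 95% interval -1.76 to 0.30, unadjusted p = 0.147 in edgeR). The other fast troponin genes tnni2a.4, tnnt3a, tnnc2 and tnni2b.2 differed by -0.54 ± 0.35, -0.31 ± 0.41, -0.25 ± 0.30 and -0.40 ± 0.77 (SE, log2). The copies tnni2b.1 and tnni2b.2 are neighbours in the RefSeq table and share the doubt on split reads, as does tnni2a.4, which stands in a row with tnni2a.1, tnni2a.2 and tnni2a.3.

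The slow troponin genes among the members, tnnt1 and tnni1b, were close to the detection limit. For tnnt1, slow troponin T, 28, 8 and 5 reads were counted in mutant libraries and 0, 22 and 14 reads in wild-type libraries. Its log2 interval of -4.73 to 5.06 leaves its difference unmeasured in these libraries. The slow troponin I gene tnni1b had 7, 0 and 0 reads in mutant and 0, 18 and 30 reads in wild-type libraries and did not enter the test. In mutant 2, where smyhc1 was highest, neither gene was at its highest. Not all related troponin genes outside the members were like them. The troponin C gene tnnc1b had 156, 1045 and 164 reads in mutant and 379, 540 and 216 reads in wild-type libraries, highest in mutant 2. The troponin I gene tnni1c was also highest in mutant 2, at 175 reads, while tnni1a was highest in mutant 1 and tnni1d in wild-type 2.

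**Figure D2:**
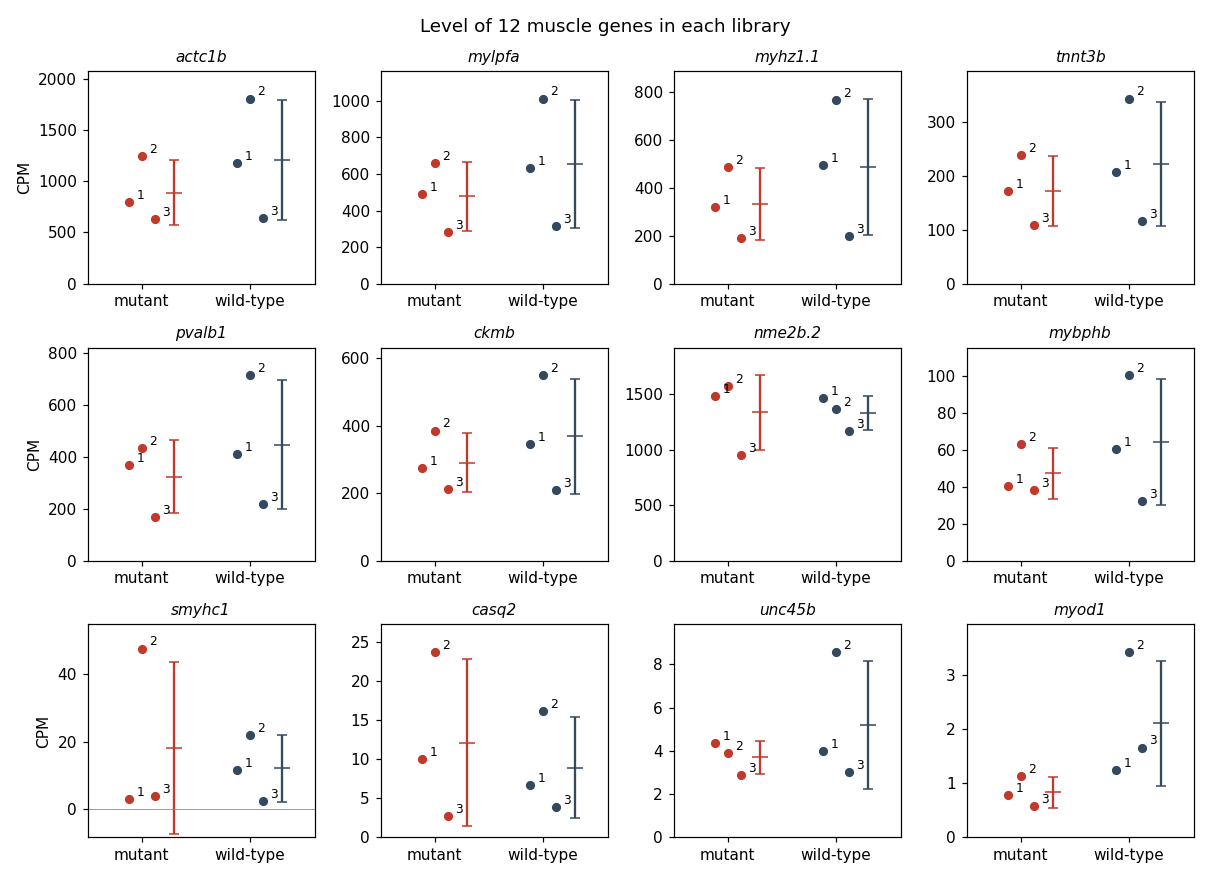
CPM of 12 muscle genes in the 3 mutant and 3 wild-type libraries (points, with the library number), with the mean and SD beside them. In actc1b, mylpfa, myhz1.1, tnnt3b, pvalb1, ckmb, mybphb and casq2 the numbers run 2, 1, 3 downward in both genotypes. Among these 12 genes only in myod1 do all mutant points lie below all wild-type points.

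The Z-disc and M-band anchor the filaments at either end and in the middle of the sarcomere. The gene for the myosin binding protein H homologue, mybphb, was at 40.3, 63.1 and 38.3 CPM in mutant and 60.7, 100.4 and 32.1 CPM in wild-type libraries. The nebulin gene neb, whose giant protein runs along the thin filament, stood at 26.8, 29.4 and 18.8 CPM in mutant and 32.1, 51.6 and 19.0 CPM in wild-type libraries. Wild-type 2 was highest in both genes and the groups overlapped at the low end. Log2 differences were -0.45 ± 0.35 for mybphb, -0.45 ± 0.32 for neb and -0.46 ± 0.45 for ldb3b, a Z-disc linker gene (SE). The alpha-actinin genes actn3a and actn3b, which crosslink actin at the Z-disc, differed by -0.0034 ± 0.33 and -0.24 ± 0.36, and the M-band gene myom1a by 0.04 ± 0.37. Desmin, the intermediate filament that ties sarcomeres together, is encoded by desma, which was at 16.3, 23.2 and 7.02 CPM in mutant and 15.2, 22.1 and 3.72 CPM in wild-type libraries. The span of desma between its highest and lowest library was 6.25-fold, and its log2 difference was 0.18 ± 0.57 (SE).

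Genes of excitation and calcium handling fell into more than one order of libraries. The parvalbumin gene pvalb1, for a calcium buffer that speeds relaxation of fast muscle, was at 370, 434 and 166 CPM in mutant and 409, 713 and 218 CPM in wild-type libraries, a log2 difference of -0.47 ± 0.46 (SE). Both pvalb2 (-0.37 ± 0.43) and atp2a1 (-0.30 ± 0.49), which encodes the calcium pump of the reticulum, were also highest in wild-type 2. The calsequestrin gene casq2, for a calcium store in the reticulum that is known from heart and skeletal muscle, was highest in mutant 2, at 9.97, 23.6 and 2.72 CPM in mutant and 6.67, 16.1 and 3.93 CPM in wild-type libraries. Its highest library was 8.70-fold above its lowest, and the log2 difference was 0.44 ± 0.69 (SE). The parvalbumin gene pvalb4 was likewise highest in mutant 2, with 6.63, 31.2 and 6.58 CPM in mutant and 12.5, 17.8 and 6.24 CPM in wild-type libraries. For both genes the remaining mutant libraries lay within or below the wild-type range. The release channel gene ryr1b (0.07 ± 0.45) and the voltage sensor gene cacna1sb (0.13 ± 0.71) stood at 8.03 ± 4.05 and 2.35 ± 1.73 CPM in mutant and 7.64 ± 3.69 and 2.15 ± 1.39 CPM in wild-type libraries (SD, n = 3). For pvalb3 the values were 4.89, 2.26 and 1.19 CPM in mutant and 5.66, 3.69 and 1.19 CPM in wild-type libraries, so library 1 was highest in each genotype.

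Energy enzymes divided into those that followed the contractile genes and those that did not. The muscle creatine kinase gene ckmb, which buffers ATP, was at 273, 386 and 212 CPM in mutant and 345, 549 and 210 CPM in wild-type libraries, a log2 difference of -0.34 ± 0.31 (SE). Its paralogue ckma (-0.24 ± 0.33), the adenylate kinase gene ak1 (-0.24 ± 0.41) and the phosphoglycerate mutase gene pgam2 (-0.46 ± 0.47) were also highest in wild-type 2. The nucleoside diphosphate kinase gene nme2b.2 stood at 1481, 1572 and 952 CPM in mutant and 1467, 1368 and 1166 CPM in wild-type libraries, a span of only 1.65-fold. The enolase gene eno3 ranged from 373 to 450 CPM in mutant and from 370 to 471 CPM in wild-type libraries, a span of 1.27-fold. Across both genotypes neither gene followed the order of actc1b. Among the mutant libraries alone nme2b.2 did, and both genes were lowest in library 3 of each genotype. Their log2 differences, 0.0015 ± 0.20 for nme2b.2 and -0.03 ± 0.15 for eno3 (SE), had the 95% intervals 0.745 to 1.35 and 0.775 to 1.23 times the wild-type level, and the sign of nme2b.2 turned under other scalings.

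The members grouped under myosin folding were the chaperone gene unc45b and the methyltransferase gene smyd1a. The level of unc45b was 4.36, 3.89 and 2.87 CPM in mutant and 4.01, 8.57 and 3.04 CPM in wild-type libraries, where wild-type 2 alone stood apart. For smyd1a it was 11.7, 16.9 and 10.8 CPM in mutant and 20.5, 20.8 and 7.45 CPM in wild-type libraries, with wild-type 3 below every mutant library. Log2 differences were -0.49 ± 0.47 and -0.31 ± 0.37 (SE). Their partner hsp90aa1.1, a heat shock protein that folds myosin and also answers stress, was at 13.1, 13.2 and 8.26 CPM in mutant and 15.4, 35.9 and 7.09 CPM in wild-type libraries. Like unc45b, hsp90aa1.1 was highest in wild-type 2, by a wide margin over the other 5 libraries.

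The myogenic transcription factors myod1 and myog, which commit cells to muscle and drive their differentiation, had few reads. The level of myod1 was 0.787, 1.14 and 0.578 CPM in mutant and 1.25, 3.41 and 1.66 CPM in wild-type libraries, from 37, 48 and 34 reads in mutant and 53, 149 and 86 reads in wild-type libraries. It was the only one of the 44 tested members whose groups did not overlap, and it lay lower in every mutant library. Across all tested genes 3.36% had every mutant library below every wild-type library and 3.38% had every mutant library above. The log2 difference was -1.33 ± 0.83 (SE, 95% interval -3.14 to 0.47, unadjusted p = 0.134 and adjusted p = 1.00 in edgeR), and was -0.80 without wild-type 2. For myog, 0, 0 and 74 reads were counted in mutant and 48, 48 and 42 reads in wild-type libraries, so the mutant group held both the lowest and the highest library. Its log2 difference of -1.26 ± 1.94 (SE) came from the 0 reads in mutant 1 and mutant 2. It was -0.68 without mutant 1 and -8.53 without mutant 3, where no mutant library held a read.

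**Figure D3:**
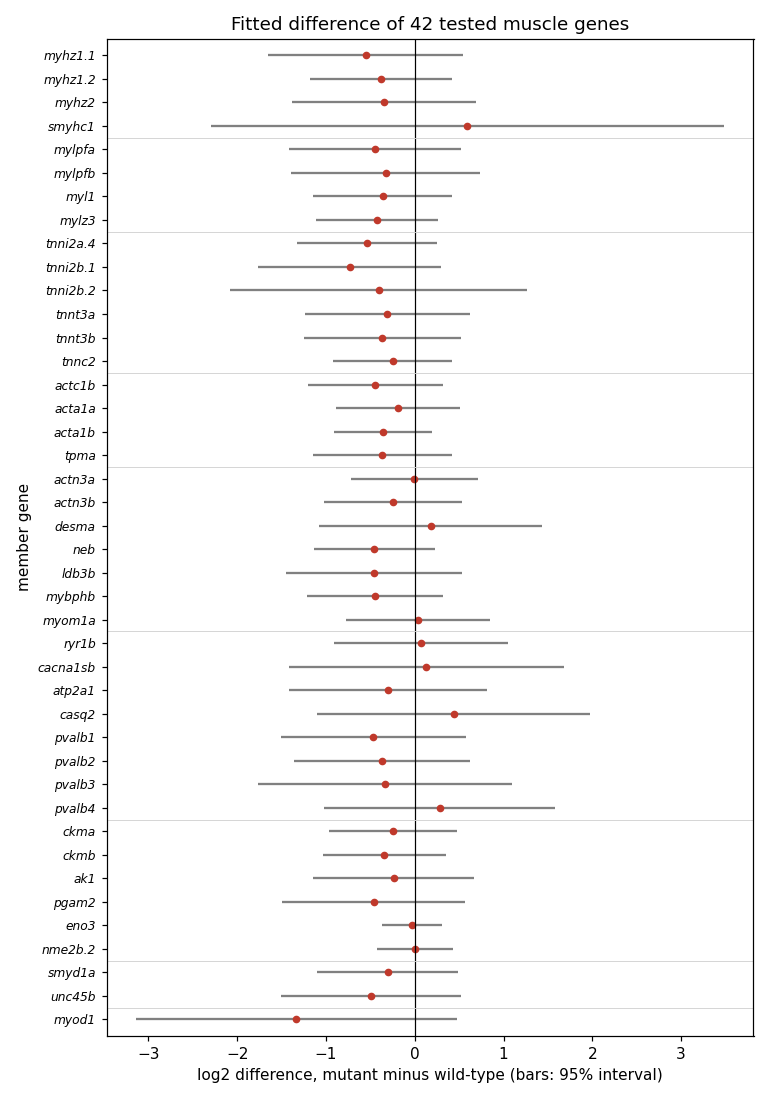
Fitted log2 difference, mutant minus wild-type, of 42 tested muscle genes (points) with 95% intervals (bars), grouped by role. All 42 intervals include 0, the narrowest being those of eno3 and nme2b.2 and the widest that of smyhc1 (tnnt1 and myog, with wider intervals still, are not drawn).

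As a description with no test, 35 of the 44 tested members had a fitted value below 0 and 9 above it, where 50.7% of all tested genes were below 0. The median log2 difference was -0.34 for the members and -0.0047 for all tested genes. All 44 intervals included 0. By role the medians were -0.36 for the myosin heavy chains, -0.39 for the light chains, -0.36 for the troponins, -0.36 for actins and tropomyosin, -0.24 for the Z-disc and scaffold genes, -0.11 for excitation and calcium genes, -0.24 for energy enzymes, -0.40 for the myosin folding genes and -1.30 for the myogenic factors. In the excitation and calcium group 4 of 8 were fitted lower and 4 higher, and the 4 higher ones were ryr1b, cacna1sb, casq2 and pvalb4. Without wild-type 2 the median of the 44 members was 0.06, with 14 below and 30 above 0. It was -0.63 without mutant 2, -0.65 without wild-type 3 and -0.10 without mutant 3, so single libraries decided its size and its sign.

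**Figure D4:**
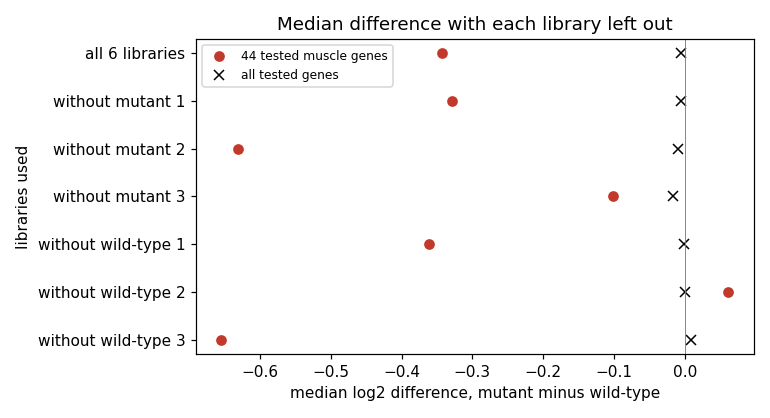
Median log2 difference, mutant minus wild-type, of the 44 tested muscle genes (circles) and of all tested genes (crosses) with all 6 libraries and with each left out in turn. The median of the muscle genes runs from -0.65 without wild-type 3 to 0.06 without wild-type 2, while that of all genes stays next to 0.

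Most members were highest in library 2 and lowest in library 3 of either genotype, without sharing a full order of the libraries. Of the 44 tested members, 31 were highest in wild-type 2, against 20.1% of all tested genes, and 40 were lowest in mutant 3 or wild-type 3, against 25.4% of all tested genes. In mutant 2, 8 of the 44 were highest, against 18.2% of all tested genes. These were smyhc1, casq2, pvalb4, desma, ryr1b, cacna1sb, tnni2b.2 and nme2b.2. Within the mutant genotype, library 2 exceeded library 3 in 43 of 44 members, by a median of 2.06-fold where the median of all tested genes was 0.970, and myog was the exception. Within the wild-type genotype library 2 exceeded library 3 in 44 of 44, by a median of 2.77-fold, where the median of all tested genes was 0.971. The SD of log2(CPM + 1) over the 6 libraries had a median of 0.602 for the members and 0.348 for all tested genes. Among genes with a mean of at least 5 on that scale it was 0.608 for 25 members and 0.204 for 4279 tested genes. These libraries were picked out after their values were seen, so the counts are given as a description.

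Within a library the proportions of most of the genes picked for comparison with actc1b shifted less than the level of actc1b. As a share of actc1b CPM, tpma was 52.1%, 44.9% and 45.5% in mutant and 43.9%, 45.6% and 43.4% in wild-type libraries. The share of ckmb was 34.4%, 31.1% and 33.8% in mutant and 29.3%, 30.4% and 32.9% in wild-type libraries, and that of mylz3 42.1%, 34.7% and 39.4% in mutant and 36.0%, 37.6% and 39.7% in wild-type libraries. These ratios, the narrowest of those computed, spanned from 1.17-fold to 1.21-fold over the 6 libraries, where actc1b itself spanned 2.88-fold. The proportions of tnnt3b, mylpfa and atp2a1 spanned 1.26-fold, 1.38-fold and 1.54-fold, and that of pvalb1 spanned 1.76-fold, from 26.5% in mutant 3 to 46.6% in mutant 1. The proportion of smyhc1 to actc1b spanned 10.2-fold, from 0.377% in wild-type 3 to 3.84% in mutant 2, and that of casq2 4.40-fold. For nme2b.2 the proportion spanned 2.47-fold, lowest in wild-type 2 at 75.7% and highest in mutant 1 at 187%, and for eno3 it spanned 2.36-fold. Both genes varied little themselves, so a span below that of actc1b does not alone show a kept proportion. The ratios are of reads and not per length, and serve only to set libraries side by side.

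Some muscle genes outside the 45 were also highest in mutant 2. Among 79 muscle genes with a mean of at least 5 CPM, 36 of them members, 46 (58.2%) were highest in wild-type 2 and 18 (22.8%) in mutant 2, against 18.3% of the 11208 tested genes at that level for each of these libraries. Of those highest in mutant 2, 10 stood at least 1.4 times higher in mutant 2 than in wild-type 2, a limit chosen after the values were seen, which is 12.7% of the 79 against 7.51% of all tested genes at that level. They were the members smyhc1, pvalb4 and casq2, the troponin genes tnnt2d, tnnt2e and tnnc1b, the light chain genes myl10 and zgc:66286, which RefSeq names myl13, the tropomyosin gene tpm2 and the Z-disc gene myoz1b. The next gene inside the limit was myoz1b at 1.42 times and the next outside it was srl at 1.16 times. The genes were picked for this property, and not all shared the order of smyhc1. The levels of tpm2 and tnnt2e spanned only 1.63-fold and 1.75-fold. Wild-type 1 was the second highest library in both of them, and also in tnnt2d and myoz1b. The level of myl10 was 10.4, 57.8 and 7.73 CPM in mutant and 21.7, 28.8 and 9.63 CPM in wild-type libraries. For tnnc1b, a troponin C gene, it was 3.32, 24.8 and 2.79 CPM in mutant and 8.93, 12.4 and 4.16 CPM in wild-type libraries. In both, mutant 2 was 2.01 times wild-type 2, and in smyhc1 it was 2.16 times, whereas actc1b in mutant 2 was 0.687 times its wild-type 2 level.

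**Figure D5:**
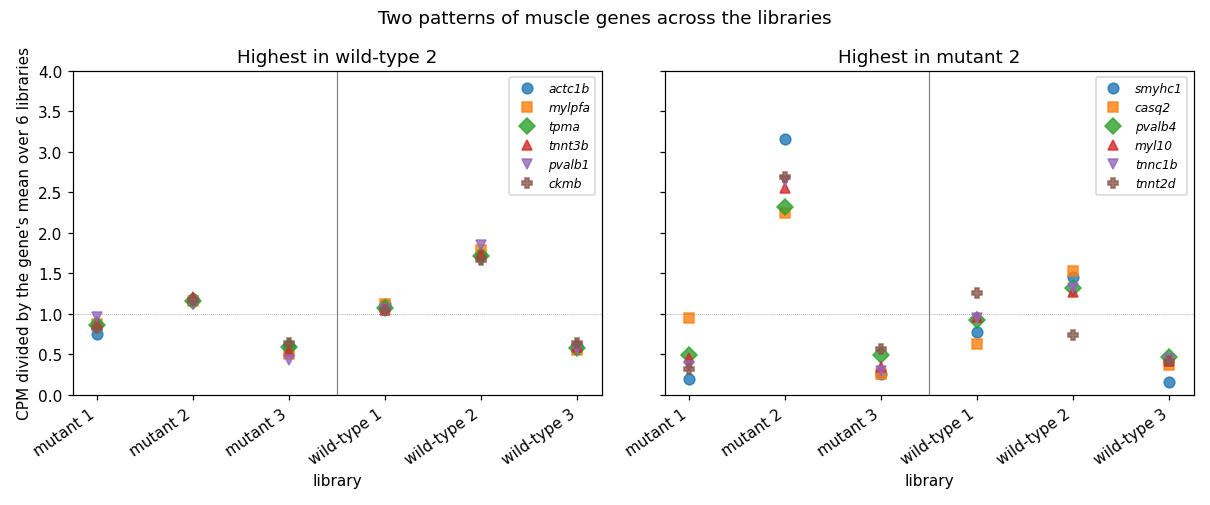
CPM divided by the gene's mean over the 6 libraries, for 6 genes chosen as highest in wild-type 2 (left) and 6 chosen as highest in mutant 2 (right), with mutant libraries left of wild-type libraries. On the left the genes lie close together without coinciding, and pvalb1 is the highest of them in mutant 1 and the lowest in mutant 3. On the right mutant 2 stands at more than 2 times the mean in all 6 genes, which were picked from the 10 named above. Not drawn are zgc:66286, myoz1b, tpm2 and tnnt2e, of which tpm2 and tnnt2e spanned only 1.63-fold and 1.75-fold.

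Values of other cell types moved with these patterns in part. The summed level of the 2 neutrophil markers was 4876, 11642 and 5509 CPM in mutant and 5498, 6864 and 4651 CPM in wild-type libraries, and that of 5 of 5 erythrocyte markers 1234, 3494 and 2104 CPM in mutant and 1884, 2711 and 2652 CPM in wild-type libraries. Both sums were highest in mutant 2, the library in which smyhc1 was highest, and their part in the level of smyhc1 was not tested. Of the erythrocyte markers 4 were highest in mutant 2. The marker gata1a was not, at 6.23, 7.79 and 13.8 CPM in mutant and 18.7, 10.8 and 20.8 CPM in wild-type libraries. The 7 endothelial markers summed to 350, 329 and 258 CPM in mutant and 413, 270 and 288 CPM in wild-type libraries, highest in wild-type 1. For 5 of 5 epidermal markers the sum ranged from 5815 to 8711 CPM in mutant and from 4911 to 7337 CPM in wild-type libraries, for 6 of 6 neural markers from 247 to 355 CPM in mutant and from 284 to 388 CPM in wild-type libraries, and for 6 of 6 smooth and mural markers from 78.0 to 110 CPM in mutant and from 93.2 to 108 CPM in wild-type libraries. Most of the mural sum was myh11a, at 76.4, 101 and 108 CPM in mutant and 90.5, 103 and 102 CPM in wild-type libraries. The mural markers acta2, tagln and pdgfrb reached at most 1.49, 2.61 and 1.16 CPM. Reads of cnn1b were found only in wild-type 3 and those of desmb only in mutant 2. The neural sum was highest in wild-type 2, and none of the neural, epidermal or mural markers was at 0 in all libraries. Heart muscle markers, which share gene families with the members, were low: 7 of 7 summed to 3.74 to 6.10 CPM in mutant and 4.08 to 6.78 CPM in wild-type libraries, nppa was at 0 in all 6 libraries and myl7 at 0 in 4 of them.

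Other muscle genes, from a list of 132 drawn up for the pathway, gave no call either. Of these, 117 were found in the table, 6 through a synonym, and 103 were tested. The edgeR quasi-likelihood test called 0, 0 higher and 0 lower, with 0 at an unadjusted p under 0.05, and 59 were fitted lower and 44 higher (median log2 difference -0.12). The genes with the smallest p were fhl2a, a LIM domain gene, at -1.63 ± 0.81, the Z-disc gene pdlim7 at -0.74 ± 0.37 and the phosphofructokinase gene pfkma at -1.20 ± 0.61 (SE). Without wild-type 3 fhl2a was at -0.78, and without wild-type 2 pdlim7 was at -0.46 and pfkma at -0.44. Those with the most reads were tpm3 at 653 ± 100 CPM in mutant and 615 ± 57.7 CPM in wild-type libraries, the pyruvate kinase gene pkma at 257 ± 30.5 CPM in mutant and 297 ± 9.24 CPM in wild-type libraries, and the fast heavy chain gene myhz1.3 at 172 ± 54.4 CPM in mutant and 293 ± 209 CPM in wild-type libraries (SD, n = 3 each). Every mutant library lay below every wild-type library in pkma, at 225, 259 and 286 CPM in mutant and 308, 290 and 295 CPM in wild-type libraries, and its log2 difference was -0.21 ± 0.14 (SE, 95% interval -0.52 to 0.10). The same held for six1a, myf5 and chrne of this list and for 3.36% of all tested genes, so pkma does not stand out by it. In myhz1.3 the wild-type mean rested on wild-type 2, at 531 CPM.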

How the data were processed

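RNA of sorted zebrafish cells was sequenced in 3 mutant and 3 wild-type libraries. The authors deposited whole-number read counts per gene symbol, not normalised, which per the submitters' processing notes involved bcl2fastq, STAR and HTSeq and the builds danRer7 and Zv9. Versions, the annotation and whether strand was used were not stated there, so overlapping and antisense genes cannot be told apart. The RNA was amplified, per the labels' protocols. The 5 summary rows of each file, which held 22.1% to 28.1% of its summed counts, were left out. The joint table matched these counts in 29361 of 29361 rows.

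Counts were analysed with edgeR 4.0.16 in R 4.3.3 (filterByExpr defaults, TMM factors, robust quasi-likelihood fit, threshold 0.05), with limma 3.58.1 and DESeq2 1.42.0 as alternatives, and checked on simulated data. Figures were drawn with matplotlib 3.10.9. A strict filter asked for 1 CPM in all 6 libraries. The muscle genes and lists were chosen with earlier results of these data known. In each role, the gene with the highest mean CPM and the one with the smallest p are given in every library, as are smyhc1, tnnt1, tnni1b, myod1, myog and casq2. Of the list of other muscle genes, the 3 with the smallest p and the 3 with the highest mean are named. Others were named after their values were seen. Symbols were matched to RefSeq names of GRCz12tu, where 44 of 45 members were found. Of that table's positions only the order of genes was used, and sequences were not used here.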

Additional observations from a re-analysis of the deposited data

How the results depend on the processing

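All alternatives were chosen with earlier results of these data known. The number of called genes was 0, and of called members 0, in edgeR under each other scaling, filter and threshold, with each library left out, without library 2 of both genotypes, in DESeq2 and in limma-voom. The lowest adjusted p over all genes in these was 0.0829, in DESeq2, where 35 genes had no adjusted p. The median log2 difference of the members lay between -0.36 and -0.12 under the scalings, filters and tools, was -0.20 without library 2 of both genotypes, and ranged from -0.65 to 0.0613 with each library left out. The value of nme2b.2 was -0.00538 with RLE, -0.0112 with upper-quartile and -0.0145 with no scaling factors, -0.00499 and -0.00554 with no filter and a strict one, and -0.00538 in DESeq2. With limma-voom, myhz2 was 0.0892, actn3a 0.28, pvalb3 0.0320 and eno3 0.0171. Without library 2 of both genotypes, myhz2 was 0.0820, smyhc1 -1.015, actn3a 0.21, pvalb4 -0.49, nme2b.2 -0.10 and unc45b 0.0461. With each library left out in turn, the sign changed in 33 of 50 genes: acta1a from -0.55 to 0.21, actn3a from -0.32 to 0.42, actn3b from -0.54 to 0.14, ak1 from -0.54 to 0.17, atp2a1 from -0.90 to 0.12, cacna1sb from -0.64 to 0.81, casq2 from -0.49 to 1.19, ckma from -0.54 to 0.15, ckmb from -0.62 to 0.0665, desma from -0.27 to 0.71, eno3 from -0.13 to 0.0503, mybphb from -0.77 to 0.0272, myhz2 from -0.74 to 0.0560, myl1 from -0.71 to 0.0172, mylpfa from -0.79 to 0.0122, mylpfb from -0.77 to 0.15, myom1a from -0.24 to 0.31, nme2b.2 from -0.13 to 0.19, pgam2 from -0.94 to 0.00117, pvalb1 from -0.80 to 0.0442, pvalb2 from -0.70 to 0.0784, pvalb3 from -1.03 to 0.18, pvalb4 from -0.88 to 0.66, ryr1b from -0.34 to 0.54, smyhc1 from -1.80 to 1.37, tnnc2 from -0.52 to 0.0701, tnni2b.2 from -2.05 to 0.0307, tnnt1 from -0.90 to 1.08, tnnt3a from -0.59 to 0.19, tnnt3b from -0.67 to 0.10, tpm3 from -0.0241 to 0.20, tpma from -0.68 to 0.0775, unc45b from -0.76 to 0.0733. Of those that kept their sign, some moved toward 0: myhz1.1 from -0.93 to -0.0642, mylz3 from -0.71 to -0.00388, neb from -0.74 to -0.0305, tnni2a.4 from -0.84 to -0.0552, tnni2b.1 from -0.97 to -0.18. So did actc1b from -0.76 to -0.0319, myhz1.3 from -1.11 to -0.0184, ldb3b from -1.05 to -0.0543, myhz1.2 from -0.89 to -0.0635, smyd1a from -0.65 to -0.0896 and acta1b from -0.60 to -0.12. The cause was not tested.

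Adding the replicate number as a replicate block called 0 genes and 0 members (lowest adjusted p 0.0535 over all genes). Under this replicate block 11 members had an unadjusted p under 0.05, where 2.7% of all tested genes did, the median of the members was -0.30, actn3a was 0.10 and nme2b.2 -0.0259. Across all tested genes, deviations of same-numbered libraries correlated at 0.0598, 0.0211 and 0.140 for numbers 1, 2 and 3 (-0.244, 0.380 and 0.246 over the members), and no label says what a number stands for. A correlation across genes leaves out a shift common to all of them. The values over the members therefore do not measure the high library 2 and low library 3 that most members shared. Among the genes with few reads, tnnt1, myog and myod1 had wide intervals and tnni1b was not tested. The part of depth in this was not tested.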
